A study of Homo sapiens with 21 samples.

Results

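CYP24A1 and 7 other genes that handle vitamin D were followed over 6 h of caffeine in HepG2 cells, a long-established line from a human liver tumour. The 8 genes were listed by symbol and matched to Ensembl gene IDs among 37637 features of a table of read counts: CYP24A1, VDR, RXRA, CYP2R1, CYP27A1, GC, LRP2 and CUBN. CYP24A1 was selected on its counts in these libraries, which rise at the top doses, so its values are a description and carry no test; the others were listed as genes of the same pathway, with earlier results of these data known. The question put to the other 7 genes was whether they moved too.

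Poly(A) RNA was sequenced in 21 libraries, 3 for each of the caffeine doses 0, 0.01, 0.1, 1, 10, 100 and 1000 µM. Every group, the 0 µM control included, was washed and kept in DMEM without serum during the exposure, so all values are from cells without added serum. The series text calls the libraries of a dose biological replicates, but nothing says that they came from separate cultures, so p-values measure only the spread between these libraries. HepG2 is a single tumour line, and RNA from many cells was pooled in each library, so fewer cells with a transcript and less transcript per cell cannot be told apart.

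Vitamin D made in the skin or eaten is inactive. Liver enzymes, chiefly CYP2R1 in the endoplasmic reticulum and CYP27A1 in mitochondria, add a hydroxyl group at carbon 25, and CYP27B1, mainly in the kidney, makes the hormone calcitriol from that product. Calcitriol binds VDR, which pairs with RXRA on DNA, and CYP24A1 is the mitochondrial enzyme that breaks both forms down and is itself a classical VDR target. GC, the vitamin D binding protein, carries the vitamin in blood, and LRP2 (megalin) and CUBN (cubilin) take up the carried form, best known in the kidney tubule.

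Total counts per library ran from 28043623 to 40827833, with a median of 32497612. Levels are in CPM, the usual normalised read count, after TMM scaling, and a count of 0 allows up to 3 counts, or 0.0735 to 0.107 CPM depending on the library (counting error only). All 8 hepatocyte markers were detected. Their summed level was 20012 to 22525 CPM at 0 µM and 16520 to 19278 CPM at 1000 µM, without overlap. Of single tested genes, 53.2% did not overlap between these doses. The sum also lay wholly below the controls at 0.01, 1, 10 and 100 µM, and overlapped them at 0.1 µM (17737 to 21556 CPM). Of 7 kidney markers 4 were in the table, and SLC34A1, SLC22A8 and NPHS1 never passed 4 counts. The sum of 3.11 to 4.34 CPM at 0 µM and 1.59 to 2.58 CPM at 1000 µM was nearly all SLC5A2, whose exons overlap another gene on the opposite strand. Of 7 blood, endothelial and fibroblast markers 6 were in the table, COL1A2 was at 0 counts throughout, and the sum of 71.2 to 84.6 CPM at 0 µM and 53.6 to 76.4 CPM at 1000 µM was nearly all CD68. The part of these marker differences in the results below was not tested.

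CYP24A1, on chr20:54153449-54173973 (minus strand, GRCh38), was expressed without caffeine and was highest at the top dose. Its level was 34.1, 33.3 and 35.4 CPM in the 3 libraries at 0 µM, and 154, 143 and 146 CPM at 1000 µM. The group means were 34.3 ± 1.05 and 148 ± 5.68 CPM (SD, n = 3), a fitted log2 difference of 2.11 or 4.31-fold (95% interval 3.86 to 4.81). The interval takes no account of how the gene was chosen. The lowest library at 1000 µM lay far above the highest control, and the counts behind these values, 1020 to 1109 per control library and 4603 to 5812 per library at 1000 µM, leave little counting error.

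Below the top dose the increments of CYP24A1 were small. At 100 µM the 3 libraries held 52.0, 52.4 and 52.1 CPM, and at 10 µM 44.6, 43.0 and 40.7 CPM. All 3 libraries of each of these doses lay above every control, where 43% and 45.8% of tested genes did not overlap. The fitted log2 differences from 0 µM were 0.61 and 0.32. At 0.01, 0.1 and 1 µM the means were 36.8 ± 0.655, 35.8 ± 3.56 and 36.2 ± 1.41 CPM (SD, n = 3). The libraries at 0.01 µM did not overlap the controls, where 32% of tested genes did not either. Those at 0.1 and 1 µM did overlap them, and these 3 doses overlapped each other. Ordered by level, 0, 0.1, 1 and 0.01 µM were neighbours within their spread, and 10, 100 and 1000 µM each stood clear of every lower dose.

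Each step between the upper doses was unequal in size. The mean level of CYP24A1 grew 1.18-fold from 1 to 10 µM, 1.22-fold from 10 to 100 µM and 2.83-fold from 100 to 1000 µM. Most of the rise thus came with the last step. Among the 17468 genes that passed the expression filter, CYP24A1 ranked 5708 by level at 0 µM and 1264 at 1000 µM, and its fold change ranked 35 among the 13838 of them with a mean of at least 1 CPM. The genes on either side of CYP24A1, taken by position, were BCAS1 (82855 bp away) at 7.18 to 8.65 CPM at 0 µM and 6.70 to 8.65 CPM at 1000 µM, and PFDN4 (33874 bp away) at 91.0 to 123 CPM and 106 to 134 CPM. Both neighbours overlapped between these doses.

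**Figure D1:**
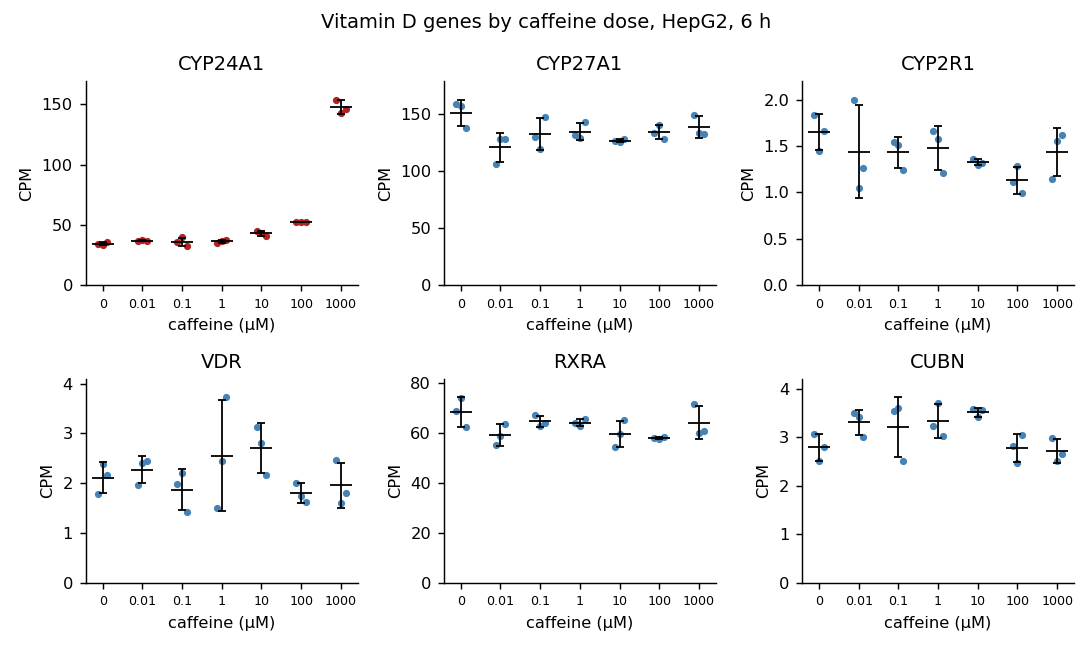
Level (CPM, linear axis from 0) of the 6 vitamin D genes that passed the expression filter, against caffeine dose (µM, equal spacing). Points are single libraries, bars the mean and SD of 3. CYP24A1 stood at 143 to 154 CPM at 1000 µM against 33.3 to 35.4 CPM at 0 µM, while the ranges of the other 5 genes overlapped between these doses.

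The other genes did not follow it. GC and LRP2 were too low to test, and none of the other 5 passed edgeR's quasi-likelihood test at a Benjamini-Hochberg adjusted p under 0.05 in any of 9 comparisons: each dose against 0 µM, 1000 against 100 µM, and 1000 µM or 0 µM against the mean of 0.01, 0.1 and 1 µM. At 1000 against 0 µM, 41.2% of all tested genes passed, and 0 of these 5 did, with 0 at an unadjusted p under 0.05 and 0 by DESeq2. Their smallest adjusted p by edgeR in that comparison was 0.306, and the 95% intervals of their fold changes together reached from 0.627 to 1.37. All 5 overlapped between the 2 groups, where 53.2% of tested genes did not. Against 0 µM, the share of all tested genes passing was 4.95%, 0%, 0%, 22% and 6.02% for the doses 0.01, 0.1, 1, 10 and 100 µM. It was 14.7% for 1000 against 100 µM, 30.1% for 1000 µM against the 3 lowest doses and 8.8% for the 3 lowest doses against the controls. The number of the 5 genes with an unadjusted p under 0.05 was, in the same order, 2, 0, 0, 3, 2, 0, 1 and 1. Of all tested genes 26.1%, 15.2%, 22.8%, 35.9%, 25.6%, 29.5%, 40.9% and 27.6% had one, and 49.4% did at 1000 against 0 µM.

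**Figure D2:**
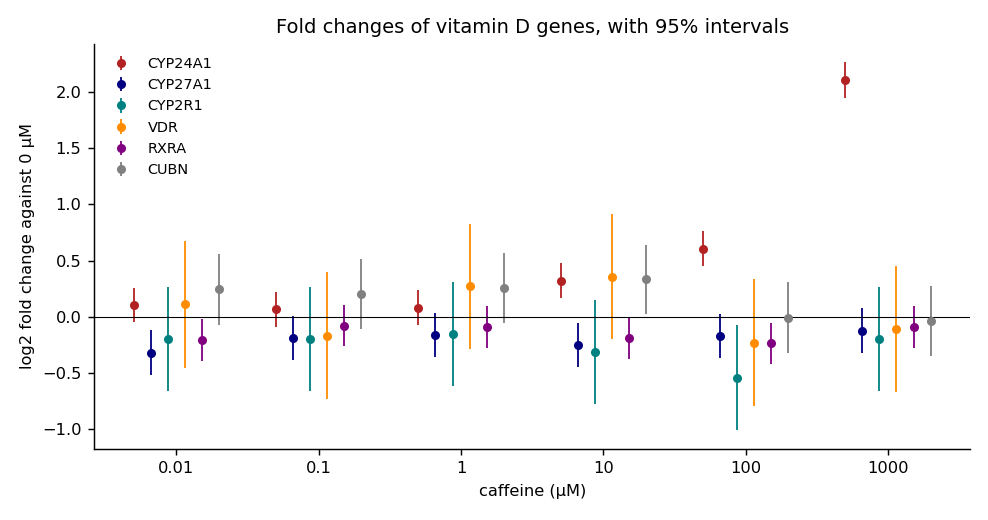
Log2 fold change against 0 µM (vertical axis) at each caffeine dose (µM), with 95% intervals from the fit of all 21 libraries. At 1000 µM the intervals of VDR, RXRA, CYP2R1, CYP27A1 and CUBN include 0; CYP24A1 (2.11) is shown as a description.

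Of the 25-hydroxylases, CYP27A1 was the abundant transcript and CYP2R1 the rare one. CYP27A1 (chr2:218781749-218815293, plus strand) held 159, 157 and 137 CPM in the control libraries and 149, 134 and 132 CPM at 1000 µM. These groups overlapped, with a log2 difference of -0.12 (95% interval -0.32 to 0.07, adjusted p = 0.306 by edgeR). The gene lay nearer the threshold at lower doses: at 0.01 µM its libraries held 106 to 128 CPM, all below the controls (log2 -0.32, edgeR adjusted p = 0.0534), and at 10 µM 125 to 128 CPM, again all below (log2 -0.25, edgeR adjusted p = 0.0626). Of all tested genes, 32% did not overlap between 0.01 and 0 µM and 45.8% did not between 10 and 0 µM. Both differences passed with DESeq2 (adjusted p = 0.0165 and 0.0371) and, with edgeR, without the third control library (adjusted p = 0.047 and 0.0391). Leaving out other single libraries weakened both. The 0.01 µM difference shrank to a log2 of -0.24 without the first library of that dose. The 10 µM difference shrank to -0.22 without the first control library. Among these fits the edgeR adjusted p reached 0.208 for the lower dose and 0.21 for the higher. The difference from the controls was not larger at the top dose: CYP27A1 was at 132 to 149 CPM there.

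CYP2R1 (chr11:14877440-14892252, minus strand) was counted 30 to 63 times per library. The control libraries held 1.84, 1.45 and 1.66 CPM, those at 100 µM between 0.994 and 1.28 CPM, and those at 1000 µM 1.14, 1.55 and 1.62 CPM. The libraries at 100 µM lay below every control, in a comparison where 43% of tested genes did not overlap, and the log2 difference of -0.54 (95% interval -1.01 to -0.08) had an adjusted p of 0.137 by edgeR. At 1000 µM the groups overlapped and the difference was -0.20 (95% interval -0.66 to 0.26, edgeR adjusted p = 0.495). At these counts a change of CYP2R1 smaller than about this interval was not detectable.

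The receptor pair was also level at the top dose. VDR (chr12:47841537-47943048, minus strand) was scarce, with 46 to 114 counts per library, 1.77 to 2.38 CPM at 0 µM and 1.60 to 2.46 CPM at 1000 µM. The ranges overlapped, and the log2 difference was -0.11 (95% interval -0.67 to 0.45, edgeR adjusted p = 0.77). Its widest spread was at 1 µM, where the third library held 3.72 CPM, the highest value of the 21. A few exon bases of VDR overlap an antisense transcript, and the counting's use of strand is not given in the sources used here.

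RXRA (chr9:134317098-134440585, plus strand) was far more abundant, at 62.1 to 74.0 CPM at 0 µM and 59.8 to 71.5 CPM at 1000 µM. Its log2 difference was -0.09 (95% interval -0.28 to 0.09, edgeR adjusted p = 0.427), with overlapping libraries. At 100 µM the libraries were tightly grouped at 57.4 to 58.2 CPM, all below the controls, where 43% of tested genes did not overlap. The log2 difference was -0.24, with an edgeR adjusted p of 0.103. A fit of the 6 libraries at 0 and 100 µM alone gave that difference an edgeR adjusted p of 0.0466, where 4015 of 16230 genes passed. With single libraries left out of the fit of all groups, its edgeR adjusted p ran from 0.0654 to 0.344. All RXRA libraries at 1000 µM lay above those at 100 µM, in a comparison where 36.8% of tested genes did not overlap, with a log2 difference of 0.15 and an edgeR adjusted p of 0.283. RXRB, a gene of the same family that was picked out after its values were seen, held 15.2 to 15.7 CPM at 0 µM and 21.6 to 27.7 CPM at 1000 µM (log2 0.64, edgeR adjusted p = 0.00304). The difference between the RXRA and RXRB changes was not tested.

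Transport and uptake genes were at or near the limit of detection except for CUBN. GC (chr4:71741693-71804041, minus strand) had 0 counts in 8 of the 21 libraries and never more than 2, below the floor of 3 counts at every dose. LRP2 (chr2:169127109-169362685, minus strand) had 0 counts in 5 libraries and at most 4. No fold is given for either. CUBN (chr10:16823966-17129817, minus strand) was measurable, with 78 to 131 counts per library, 2.51 to 3.08 CPM at 0 µM and 2.51 to 2.99 CPM at 1000 µM. Those ranges nearly coincide, and the log2 difference was -0.04 (95% interval -0.35 to 0.27, edgeR adjusted p = 0.852).

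CUBN had its highest means between the ends of the dose range. It held 3.42 to 3.58 CPM at 10 µM, above every control, where 45.8% of tested genes did not overlap. The log2 difference was 0.33, with an edgeR adjusted p of 0.116. Against the mean of 0.01, 0.1 and 1 µM, the 1000 µM libraries were lower by a log2 difference of -0.27 (edgeR adjusted p = 0.102), and without the third library at 0.1 µM by -0.32 (edgeR adjusted p = 0.0343). With other single libraries left out, the edgeR adjusted p of this difference reached 0.322.

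Compared per length, the transcript of the breakdown enzyme moved toward the level of that of the abundant 25-hydroxylase. On the scale of CPM per kb of exon, CYP27A1 was highest at 0 µM (50.6 ± 3.93), followed by CYP24A1 (8.63 ± 0.265), RXRA (6.16 ± 0.536), VDR (0.372 ± 0.0545), CYP2R1 (0.365 ± 0.0433) and CUBN (0.211 ± 0.0213; SD, n = 3 each). VDR and CYP2R1 overlapped, and the other neighbours in this order did not. At 1000 µM the order was the same, with CYP24A1 at 37.2 ± 1.43 and CYP27A1 at 46.4 ± 3.15 CPM per kb, still without overlap. The ratio of CYP24A1 to CYP27A1 per length was 0.162, 0.159 and 0.193 in the control libraries and 0.775, 0.805 and 0.827 at 1000 µM. This ratio carries the rise by which CYP24A1 was chosen.

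CYP27B1, the enzyme that makes calcitriol, was set beside CYP24A1 in the same way. It held 1.11 to 1.23 CPM per kb at 0 µM and 0.866 to 0.989 at 1000 µM, all lower, where 53.2% of tested genes did not overlap. The log2 difference of -0.30 did not pass (edgeR adjusted p = 0.0769). Against the mean of 0.01, 0.1 and 1 µM, CYP27B1 at 1000 µM differed by a log2 of -0.32. That difference passed an adjusted p under 0.05 by edgeR, where 30.1% of all tested genes passed. The ratio of CYP24A1 to CYP27B1 per length was 7.39 ± 0.329 in the controls, and 11.2 ± 0.177 and 39.4 ± 2.18 with 100 and 1000 µM (SD, n = 3). The ratio inherits the rise of CYP24A1 by which that gene was chosen. A short stretch of CYP27B1 exon is shared with METTL1 on the same strand.

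**Figure D3:**
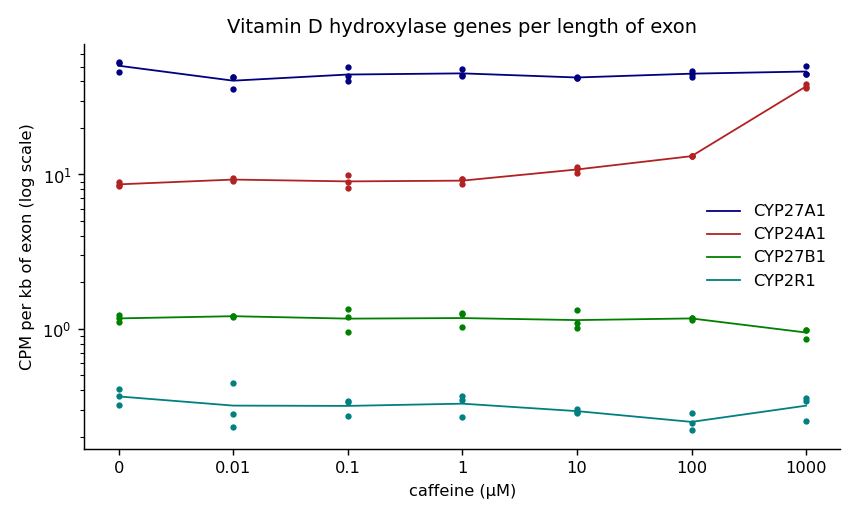
Level of 4 vitamin D hydroxylase genes in CPM per kb of exon (log axis) against caffeine dose (µM). Points are single libraries and lines join the means of 3; CYP24A1 went from 8.63 to 37.2, while CYP27A1 went from 50.6 to 46.4 and did not pass the test.

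Mitochondrial hydroxylases take electrons from NADPH through the reductase FDXR and the ferredoxin FDX1, and microsomal ones through POR. FDX2, a related ferredoxin best known for iron-sulfur cluster assembly, was listed beside them. Of 11 listed genes for vitamin D synthesis enzymes and these redox proteins, 9 were tested, and at 1000 against 0 µM 2 rose, 4 fell and 3 did not pass, with a median log2 change of -0.30 beside -0.03 over all tested genes, of which 20.6% rose and 20.6% fell. FDXR held 176, 176 and 156 CPM at 0 µM and 81.4, 80.5 and 65.7 CPM at 1000 µM. It fell by 1.16 on the log2 scale (SE 0.17, edgeR adjusted p = 4.34e-05). All 3 libraries lay below the controls, where 53.2% of tested genes did not overlap. The levels of FDXR at the doses 0.01, 0.1, 1, 10 and 100 µM were 110 ± 32.0, 136 ± 21.4, 127 ± 8.75, 107 ± 7.75 and 110 ± 8.86 CPM (SD, n = 3), and those at 0.1 µM overlapped the controls.

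The ferredoxins fell as well, with less room above the error. FDX1 held 19.2 to 24.2 CPM at 0 µM and 7.98 to 16.5 CPM at 1000 µM (log2 -0.85, SE 0.26, edgeR adjusted p = 0.0139). FDX2 held 12.8 to 15.2 and 7.45 to 12.1 CPM (log2 -0.46, SE 0.16, edgeR adjusted p = 0.0293), and it shares exon with another annotated gene on the same strand, so its counts are uncertain. The means of FDX1 at 0.01, 0.1, 1, 10 and 100 µM were 16.8, 18.4, 13.0, 11.7 and 13.25 CPM. Its mean at 1000 µM was 11.8 CPM, so its level was already as low from 1 µM on. FDX1 lost its call without the first control library, the first 1000 µM library or the third 1000 µM library (edgeR adjusted p = 0.0578, 0.0825 and 0.056). FDX2 lost it without the first or the second control library or the second or the third 1000 µM library (edgeR adjusted p = 0.119, 0.0501, 0.0524 and 0.173), without a filter on low counts (0.0681) and in a fit of these 6 libraries alone (0.068).

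Sterol enzymes moved in both directions. DHCR7, which turns the vitamin D precursor 7-dehydrocholesterol into cholesterol, held 109 to 127 CPM at 0 µM and 83.4 to 94.3 CPM at 1000 µM and fell by 0.40 on the log2 scale (edgeR adjusted p = 0.000753). SC5D, which makes that precursor, held 61.6 to 68.9 and 69.8 to 104 CPM and rose by 0.45 (edgeR adjusted p = 0.0263). POR held 227 to 243 and 266 to 342 CPM and rose by 0.35 (edgeR adjusted p = 0.0374). These rises rested on single libraries: SC5D lost its call without the first or the second control library or the second or the third 1000 µM library (edgeR adjusted p = 0.0509, 0.0944, 0.0731 and 0.138). POR lost it without any of the 3 control libraries (edgeR adjusted p = 0.0795, 0.0674 and 0.0779), without the first or the third 1000 µM library (0.123 and 0.0712) and with upper-quartile scaling (0.0565).

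**Figure D4:**
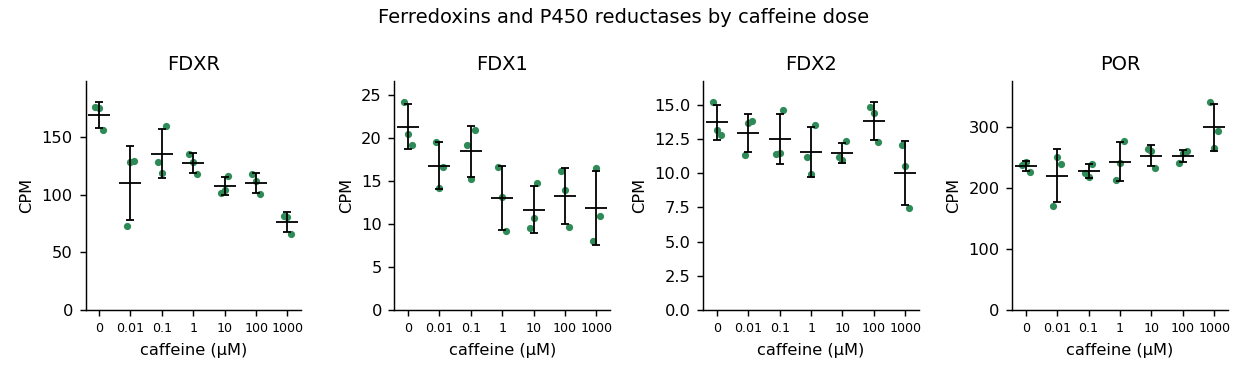
Level (CPM, axes from 0) of the reductases FDXR and POR and the ferredoxins FDX1 and FDX2, against caffeine dose (µM). Points are single libraries, bars the mean and SD of 3; FDXR was 156 to 176 CPM at 0 µM and 65.7 to 81.4 CPM at 1000 µM.

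Upstream sequence was read for the genes that RefSeq's promoter table (GRCh38.p14) matched, as the 250 bases before each listed start. It matched CUBN, CYP27A1, CYP2R1, LRP2 and RXRA, with 8 windows in all, and did not match CYP24A1, VDR and GC. Windows were searched on both strands for 4 hexamers that VDR sites are built of. AGGTCA was in 12.08% of 35116 windows of this length. AGTTCA was in 8.799% of them. GGTTCA was in 7.159%. GGGTCA was in 12.06%. DR3, a direct repeat of any of these hexamers with 3 bases between, was in 0 of the 8 windows and in 0.0655% of all windows. Any single hexamer was in 5 of the 8, in CUBN, CYP27A1, CYP2R1 and RXRA, and in 33.83% of all windows. The window of CYP27A1, the most abundant of the 8 genes at 0 µM, is printed with that of FDXR, which fell most among the listed redox genes. Both read 5′ to 3′ on the gene's strand, with capitals at a hexamer on either strand.
CYP27A1, chr2:218781897-218782146, plus strand: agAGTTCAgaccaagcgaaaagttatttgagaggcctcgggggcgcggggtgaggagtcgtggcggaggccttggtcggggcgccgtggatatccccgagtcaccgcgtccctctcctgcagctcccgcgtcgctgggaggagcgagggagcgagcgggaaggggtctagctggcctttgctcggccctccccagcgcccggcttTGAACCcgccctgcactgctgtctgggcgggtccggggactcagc
FDXR, chr17:74872995-74873244, minus strand: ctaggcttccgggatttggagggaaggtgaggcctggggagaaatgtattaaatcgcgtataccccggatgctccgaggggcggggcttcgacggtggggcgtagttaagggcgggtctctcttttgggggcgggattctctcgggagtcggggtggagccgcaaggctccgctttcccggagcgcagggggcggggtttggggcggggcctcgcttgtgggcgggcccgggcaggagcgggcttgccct
CYP27A1 holds 2 hexamers and this FDXR window holds 0. Another RefSeq start of FDXR has a window with 1. The CYP27A1 window lies inside the span given above for the gene, which begins at an earlier GENCODE position. A match is only a string of letters, and its absence says nothing of VDR binding.

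The genes of proteins that work with megalin and cubilin were examined next. All 7 listed uptake partners were tested, and at 1000 against 0 µM 0 rose, 4 fell and 3 did not pass, with a median log2 change of -0.25, where 20.6% of all tested genes fell and 41.2% passed in either direction. AMN, the membrane anchor of cubilin, held 32.7, 34.8 and 33.9 CPM at 0 µM and 19.4, 19.5 and 15.7 CPM at 1000 µM and fell by 0.90 on the log2 scale (SE 0.16, edgeR adjusted p = 0.000251). Its exons overlap CDC42BPB on the opposite strand. LRPAP1, the chaperone of megalin, fell by 0.37 (141.5 to 158 CPM against 106 to 125 CPM, edgeR adjusted p = 0.0124), DAB2, an endocytic adaptor, by 0.47 (23.5 to 26.9 against 15.2 to 20.4 CPM, edgeR adjusted p = 0.0157) and PDIA3, a disulfide isomerase also described as a membrane binder of calcitriol, by 0.25 (905 to 1068 against 811 to 879 CPM, edgeR adjusted p = 0.0381).

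The last 3 of these calls depended on single libraries, and that of AMN did not. LRPAP1 lost its call without the first control or the third 1000 µM library (edgeR adjusted p = 0.0526 and 0.0715) and with no filter on low counts (0.0501). DAB2 lost it without the third control or the second 1000 µM library (edgeR adjusted p = 0.0711 and 0.102). PDIA3 lost it without the first or the third control library (edgeR adjusted p = 0.151 and 0.128), without any of the 1000 µM libraries (0.0627, 0.14 and 0.0918), with no filter (0.257) and in a fit of the 6 libraries alone (0.0817). PDIA3 and DAB2 also share exon sequence with neighbouring genes. AMN had means of 22.4, 28.3 and 26.0 CPM at 0.01, 0.1 and 1 µM, beside 33.8 CPM at 0 µM. LRPAP1 had 120, 141 and 132 beside 150 CPM, and PDIA3 926, 892 and 869 beside 1002 CPM. DAB2 was higher there, at 33.5, 28.5 and 33.6 beside 24.9 CPM. In these doses pooled against 0 µM, 0 of the 7 rose and 1 fell, where 8.8% of all tested genes passed. At 1000 µM against the mean of these doses, 1 rose and 2 fell, where 30.1% passed.

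Of the coregulators that VDR and its partner recruit, most of those tested rose at the top dose. Of 15 listed, 14 were tested. At 1000 against 0 µM 9 rose, 0 fell and 5 did not pass, beside 20.6% of all tested genes that were higher. The median log2 change was 0.57. The list also holds RXRB and RXRG, which are receptors of the RXRA family and not coregulators. RXRG was not tested, and RXRB, described above, is counted among the 14 and among the 9. MED1, the Mediator subunit that contacts nuclear receptors, held 45.7, 51.3 and 47.6 CPM at 0 µM and 110, 104 and 119 CPM at 1000 µM and rose by 1.20 on the log2 scale (SE 0.15, edgeR adjusted p = 1.17e-05). The histone acetyltransferases EP300 and CREBBP rose by 0.98 (49.9 to 67.7 against 95.7 to 136 CPM, edgeR adjusted p = 0.00111) and 0.92 (43.8 to 59.7 against 73.3 to 112 CPM, edgeR adjusted p = 0.00434). In each of these 3 genes all libraries at 1000 µM exceeded all controls, where 53.2% of tested genes did not overlap. The 3 were named for having the largest rises of the list.

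Part of the coregulator list, with RXRB counted among the 14, also passed at lower doses. At 10 µM 8 of 14 rose and 0 fell (median log2 change 0.72), where 22% of all tested genes passed. At 100 µM 1 of 14 rose and 0 fell (median log2 change 0.42), where 6.02% passed. At 1000 against 100 µM 1 of 14 rose and 0 fell, where 14.7% passed. Taken singly, 7 of 14 rose at 0.01 µM, where 4.95% of all tested genes passed. At 0.1 and at 1 µM 0 of 14 passed by edgeR (8 and 9 at an unadjusted p under 0.05), and 0% of all tested genes did. In the mean of 0.01, 0.1 and 1 µM against 0 µM, 7 of 14 rose and 0 fell, with a median log2 change of 0.45, beside 4.95% of all tested genes that were higher. MED1 stood at 83.6 ± 8.43, 79.3 ± 19.7 and 76.8 ± 7.19 CPM at these doses (SD, n = 3), with a log2 difference of 0.73 from 0 µM (edgeR adjusted p = 0.0182). CYP24A1 differed by 0.06 to 0.10 at the same doses. At 1000 µM against these doses, 3 of 14 rose, beside 16.2% of all tested genes, and 0 fell. Without the first or the second control library, 0 of all tested genes passed in this pooled low-dose comparison by edgeR (2853 and 3405 had an unadjusted p under 0.05), and MED1 had an edgeR adjusted p of 0.172 and 0.086. With all controls but only the samples compared in the fit, 0 passed as well (3818 had an unadjusted p under 0.05), and MED1 had an edgeR adjusted p of 0.0781. The same 3 control libraries serve the comparisons at the low doses and at 1000 µM.

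Listed target genes of VDR divided between rises and falls. Of 36 listed, 31 were in the table and 20 were tested, and at 1000 against 0 µM 8 rose, 6 fell and 6 did not pass, with a median log2 change of 0.21, where 20.6% of all tested genes rose and 20.6% fell. IGFBP1, a secreted binder of insulin-like growth factors, held 51.3, 39.0 and 40.0 CPM at 0 µM and 294, 306 and 299.8 CPM at 1000 µM, a rise of 2.79 on the log2 scale (SE 0.17, edgeR adjusted p = 4.59e-09). At 100 µM it held 52.6 to 57.5 CPM, so like CYP24A1 its main increment lay between 100 and 1000 µM. CYP2B6, a drug-metabolising P450, rose by 1.02 (10.9 to 12.7 against 19.1 to 27.6 CPM, edgeR adjusted p = 0.000833) and CLMN, which encodes calmin, by 0.82 (26.1 to 26.4 against 43.1 to 49.9 CPM, edgeR adjusted p = 3.73e-06). CYP2B6 has a close pseudogene copy, and CLMN shares exon sequence with a transcript on its own strand, so the counts of both are uncertain.

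Other classical targets were lower. CDKN1A, the p21 cell cycle inhibitor, held 195, 208 and 188 CPM at 0 µM and 82.1, 86.7 and 75.4 CPM at 1000 µM and fell by 1.27 on the log2 scale (SE 0.08, edgeR adjusted p = 8.49e-09). CD14, the monocyte coreceptor for lipopolysaccharide, fell by 1.09 (1.29 to 1.54 against 0.444 to 0.909 CPM, edgeR adjusted p = 0.00274), at low counts. SULT2A1, a steroid sulfotransferase of liver, fell by 0.76 (58.9 to 68.3 against 31.2 to 41.1 CPM, edgeR adjusted p = 0.00078). The listed targets TRPV5, TRPV6, SLC34A2, CAMP, BGLAP, G0S2, IGFBP3, IGFBP5 and TNFSF11 had fewer than 10 counts in every library. So did CYP27C1, NR4A2, FGF23, FGFR2 and CALCR of the other lists.

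The last lists hold receptors that share RXR and signals that act on CYP24A1 in other tissues. Of 15 nuclear receptors that pair with RXR, 14 were tested, and at 1000 against 0 µM 2 rose, 1 fell and 11 did not pass (median log2 change -0.12), where 41.2% of all tested genes passed. NR1H4, the bile acid receptor, held 13.0 to 14.9 CPM at 0 µM and 6.63 to 8.47 CPM at 1000 µM and fell by 0.92 (edgeR adjusted p = 1.46e-05). PPARG, a fatty acid receptor, held 14.2 to 16.4 and 23.2 to 28.8 CPM and rose by 0.75 (edgeR adjusted p = 9.99e-05), and NR4A1, an immediate early gene that overlaps a transcript of the opposite strand, rose by 0.58 (9.40 to 9.93 against 12.4 to 18.1 CPM, edgeR adjusted p = 0.0309). NR4A1 lost its call without any of the 3 control libraries (edgeR adjusted p = 0.0632, 0.0811 and 0.0606) or without the first 1000 µM library (0.138).

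Of 9 listed hormone signals, 8 were in the table and 5 were tested, and at 1000 against 0 µM 2 rose, 0 fell and 3 did not pass (median log2 change -0.10), a share near the 41.2% of all tested genes that passed. FGFR1, which with klotho receives the phosphate hormone FGF23, held 43.5 to 45.0 CPM at 0 µM and 63.6 to 76.4 CPM at 1000 µM and rose by 0.65 (edgeR adjusted p = 5.67e-05). FGFR3, another FGF receptor, held 132 to 169 and 180 to 206 CPM and rose by 0.38 (edgeR adjusted p = 0.0132), and without the first control library its adjusted p by edgeR was 0.0767.

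**Figure D5:**
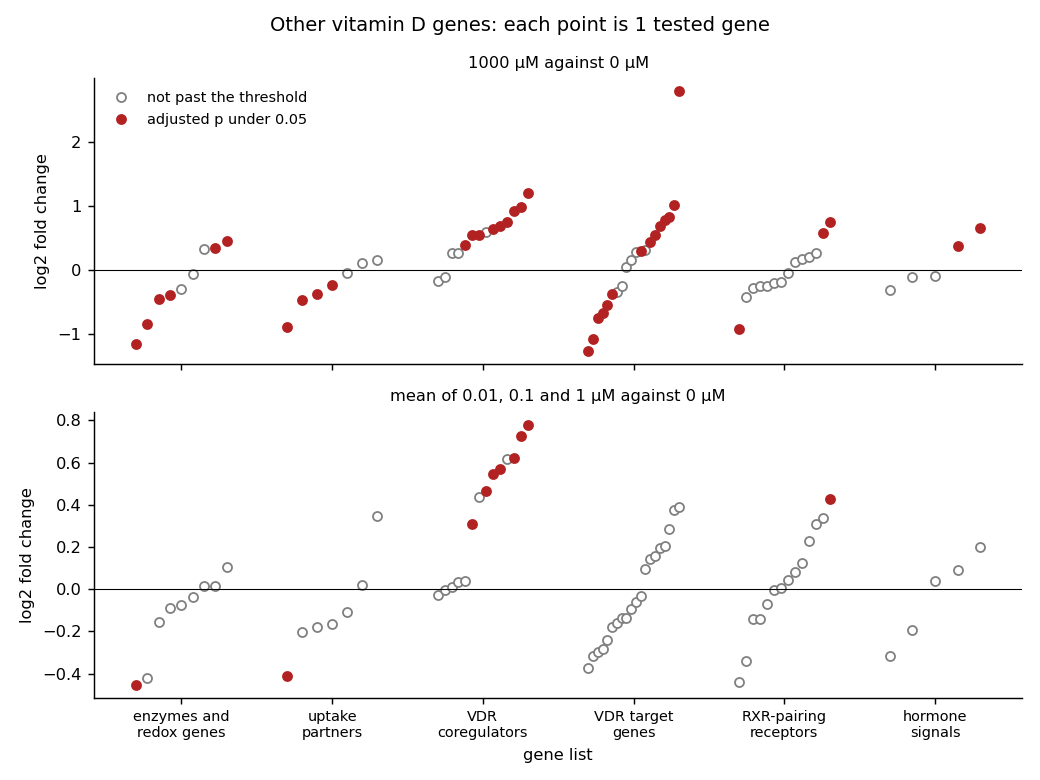
Log2 fold change (vertical axis) of each tested gene of 6 vitamin D gene lists (horizontal axis), at 1000 against 0 µM (upper panel) and in the mean of 0.01, 0.1 and 1 µM against 0 µM (lower panel, another vertical scale). Filled points passed an adjusted p under 0.05 by edgeR. In the coregulator list, which includes RXRB, 9 of 14 did so in the upper panel and 7 of 14 in the lower.

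Genes whose pattern was most like that of CYP24A1 were ranked by Pearson's r in log2 CPM over the 21 libraries, among 12436 genes with a symbol and a mean of at least 1 CPM. They were BMF (r = 0.993), a pro-apoptotic BCL2 relative, ERRFI1 (0.987), an inhibitor of the EGF receptor, ANKH (0.984), a pyrophosphate transport protein, SLC16A6 (0.981), of the monocarboxylate transporter family, and TBX3 (0.981), a T-box factor. BMF held 5.41 ± 0.287 CPM in the controls and 48.6 ± 3.30 CPM at 1000 µM (SD, n = 3), and ERRFI1 329.8 ± 12.5 and 1273 ± 74.9 CPM. These points share the dose and the 3 libraries at 1000 µM weigh heavily: over the 18 libraries below that dose r was 0.930 for BMF, 0.860 for ERRFI1, 0.851 for ANKH, 0.899 for SLC16A6 and 0.833 for TBX3. In a ranking over those 18 libraries the 5 genes nearest to CYP24A1 were ZSCAN26, BMF, PRNP, CYP1A1 and DTNA. By Spearman's rho over the 21 libraries they were AKAP12, ZSCAN26, EPAS1, SERINC3 and RNF6, which share 0 genes with the first list.

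Of the 5 other members that were tested, none was near CYP24A1 in this measure. Over the 21 libraries r was 0.09 for CYP27A1, -0.04 for RXRA, -0.11 for CYP2R1, -0.15 for VDR and -0.37 for CUBN. Over the 18 libraries below 1000 µM it was -0.24, -0.64, -0.56, 0.02 and -0.05 in the same order. Among the doses up to 100 µM, RXRA and CYP2R1 had their lowest means at 100 µM, where CYP24A1 had its highest. Libraries of a dose are not independent points in these r values. At 1000 µM RXRA and CYP2R1 both overlapped the controls.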

How the data were processed

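The authors deposited whole-number read counts per gene, without normalization. HISAT2, DESeq2 and the build GRCh38 are named in the submitters' processing notes, without versions; the counting program, annotation and use of strand are not given in the sources used here. Of 42 sample columns, 21 belong to the samples studied; the other 21 were not used. Control libraries follow the sample labels (caffeine 0 µM), although the series text names another compound. Symbols were matched by Ensembl ID without version for 24843 of 32937 IDs; positions and exon lengths are from GENCODE on GRCh38.

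edgeR 4.0.16 (R 4.3.3) fitted its quasi-likelihood model to all 21 libraries (7 groups, TMM, minimum count 10), with 17468 genes tested, 14 residual degrees of freedom and a common biological coefficient of variation of 0.162. Adjustment was by Benjamini-Hochberg over all tested genes, threshold 0.05. Scripts were tested on simulated counts. Replicate libraries differed beyond sampling noise (chi-square per gene 5.08 to 186). The mitochondrial share of counts was 4.95% to 14.2%.

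Alternatives were DESeq2 1.42.0, upper-quartile scaling, no filter, at least 10 counts in every library, only the samples compared, the replicate number as a block, and each library left out. The members and gene lists were chosen with earlier results of these data known. All 8 members are named; from each list, every gene past the threshold at 1000 against 0 µM if 6 or fewer, otherwise the 3 largest rises and 3 largest falls with a mean of at least 1 CPM, genes under 10 counts in every library by name only, and the 5 genes with the highest r with CYP24A1.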

Additional observations from a re-analysis of the deposited data

How the results depend on the processing

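The count of VDR, RXRA, CYP2R1, CYP27A1 and CUBN past the threshold was 0 in 110 of 120 alternative fits over the 9 comparisons and 1 in the others. The gene was CYP27A1 at 0.01 µM (DESeq2, and at least 10 counts in every library), at 10 µM (DESeq2, and only the samples compared) and in the 3 lowest doses (DESeq2), and RXRA at 100 µM (only the samples compared); with single libraries left out the count ran from 0 to 1. At 1000 against 0 µM it was 0 in every alternative run. With single libraries left out, the log2 difference of CYP24A1 ran from 2.09 to 2.15 at 1000 against 0 µM. At 0.1 against 0 µM it ran from 7.8e-05 to 0.13. These ranges are a description, since CYP24A1 was chosen on the same libraries. The number of all genes passing was less stable. At 0.01 µM it was 864, and 2193 with DESeq2, 1301 with at least 10 counts in every library, 2 with only the samples compared and 0 with the replicate block. At 0.1 µM it was 0, and 528 with DESeq2, 101 with no filter and 1 with only the samples compared. At 1 µM it was 0, and 1410 with DESeq2 and 230 with no filter. At 100 µM it was 1051, and 2079 with DESeq2, 4015 with only the samples compared and 445 with the replicate block. For the 3 lowest doses against 0 µM it was 1538, and 2506 with DESeq2, 0 with only the samples compared and 852 with the replicate block. With single libraries left out the number against 0 µM was 0 to 1079, 0 to 865, 0 to 1264, 1260 to 3707 and 26 to 1133 for the doses 0.01, 0.1, 1, 10 and 100 µM; it was 1302 to 2987 for 1000 against 100 µM, 3071 to 6402 for 1000 µM against the 3 lowest doses and 0 to 2686 for these doses against 0 µM. The causes were not tested. Replicate numbers did not pair the libraries: deviations of same-numbered libraries correlated from -0.437 to 0.249 (median 0.0199), 11 of 63 pairs exceeded 0.1, and 3 of 21 libraries correlated best with their own number; with the block PDIA3 had an adjusted p of 0.0539 at 1000 µM. Depth limits VDR, CYP2R1 and CUBN, and leaves GC and LRP2 unmeasured.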
